A study of Mus musculus with 19 samples.

Results

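The genes described here are a list of 35 p53 target genes, called targets below, chosen by symbol and grouped by what their products do. They were chosen with earlier results of these data known. Whether p53 acts on each of them in these mouse lines was not tested. All 35 were found among the 29861 rows of the deposited expression table, and all 35 were among the 12500 genes tested, which had a TPM (a transcript abundance corrected for length, with a fixed sum in each library) of at least 1 in at least 6 lines. RNA-seq had been done on 19 mouse pancreatic ductal organoid lines, which are epithelial cultures grown as hollow spheres in a basement membrane gel. The 6 tumor lines came from pancreatic adenocarcinomas of mice with Pdx1-Cre and a Cre-activated Trp53 allele (Trp53LSL-R172H). The 6 PanIN lines came from ducts of pancreas that contained pancreatic intraepithelial neoplasia, a precursor lesion, in mice with Pdx1-Cre and no altered Trp53 allele in the labels. The 7 normal lines came from ducts of wild-type mice. Every mouse had the C57B6/J background, Cre was driven by the Pdx1 promoter, which is active in the pancreatic epithelium during development, and all lines were kept in the same medium, which contained EGF, FGF-10, noggin, R-spondin, gastrin, nicotinamide, N-acetylcysteine and the TGF-beta receptor inhibitor A83-01. The 6 tumor lines came from 3 female and 3 male mice, the PanIN lines from 3 and 3, and the normal lines from 5 female and 2 male mice. The labels are silent on shared animals or litters, so each p-value reflects line-to-line spread, which may in part be technical.

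p53 is a transcription factor that accumulates after DNA damage and other stress and binds DNA elements built from 2 copies of a short motif. Its targets stop the cell cycle, prepare or trigger cell death, repair DNA, adjust metabolism and feed back on p53 itself. The R172H substitution lies in the DNA-binding domain and is known to impair binding to these elements. In pancreatic cancer models p53 is known to restrain the passage of precursor lesions to adenocarcinoma.

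The lines fit the label of a ductal epithelium: 10 of 10 ductal genes of a marker list were detected, with a summed TPM of 6183 to 7885 in tumor, 6782 to 9568 in PanIN and 7767 to 12674 in normal lines. Much of this sum was the keratin genes Krt8 and Krt18, with means of 1873 and 2502 TPM in tumor lines. Cftr, of the same list, was low, at 0.37 to 5.24 TPM over all lines. All 9 fibroblast, 6 endothelial, 9 acinar and 8 endocrine markers stayed under a TPM of 1 in every line, and among 9 immune markers the pan-leukocyte gene Ptprc did not pass 0.0900. Of that list Emr1, Cd3e and Lyz2 were listed at 0 throughout, while Cd14, Cd68 and Csf1r were measurable. The summed immune marker TPM, nearly all Cd14, was 97.4 to 231 in tumor, 181 to 275 in PanIN and 255 to 456 in normal lines, and its part in the results was not tested. The Trp53 transcript was at 69.8 ± 10.2 TPM in tumor, 62.04 ± 12.5 in PanIN and 67.7 ± 8.44 in normal lines (SD, n = 6, 6 and 7). Since its allele carries a point mutation, this level does not check the genotype. Normal 10 had the lowest value of the 7 normal lines for 20 of the 35 targets, and the same count over all tested genes was not made. Without normal 10, the number of targets called higher in PanIN than in normal lines was again 15.

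Of the 35 targets, 27 had a promoter window in the RefSeq promoter table (250 bases before to 50 after an annotated transcript start, GRCm38.p6). A p53 full site, written here as 2 adjacent copies of the 10-base p53 consensus motif with at most 2 of 20 positions off consensus and its central C and G intact, was found in 4 of these 27 genes (14.8%), against 106 of 27025 genes in the table (0.392%). The motif reads alike on both strands, so each window was searched once, and a gene counted when any of its windows held a site. A single exact copy of the 10-base motif was found in 10 of the 27 genes (37%) and in 9.55% of all genes of the table. The 4 full sites are shown because this element is the DNA that p53 recognises, and the R172H substitution lies in the domain that does so. The capitals mark the site, and each stretch runs 5′ to 3′ on the gene's own strand and ends at or before the transcript start.
Cdkn1a, chr17:29090868-29090978, + strand, first base of the site 51 bases before the upstream of its 2 annotated starts: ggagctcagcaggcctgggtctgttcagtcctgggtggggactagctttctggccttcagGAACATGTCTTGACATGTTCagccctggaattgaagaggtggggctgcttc
Ccng1, chr11:40755402-40755536, - strand, first base of the site 195 bases before the start: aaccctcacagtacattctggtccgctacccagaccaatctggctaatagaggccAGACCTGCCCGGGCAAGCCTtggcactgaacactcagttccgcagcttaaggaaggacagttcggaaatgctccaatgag
Rps27l, chr9:66946236-66946375, + strand, first base of the site 117 bases before the downstream of its 2 annotated starts: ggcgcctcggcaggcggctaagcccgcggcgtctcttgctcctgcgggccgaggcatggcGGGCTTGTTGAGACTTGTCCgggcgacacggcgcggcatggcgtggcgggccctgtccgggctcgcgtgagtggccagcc
Zfp365, chr10:67912663-67912785, - strand, first base of the site 63 bases before the start: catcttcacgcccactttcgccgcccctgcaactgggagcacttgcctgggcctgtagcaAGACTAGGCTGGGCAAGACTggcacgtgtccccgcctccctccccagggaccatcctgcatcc
The sites of Cdkn1a, Ccng1 and Rps27l matched the consensus at 19 of 20 positions and that of Zfp365 at 18. A match describes letters and is not a measured binding site, and windows with no match say nothing on p53 binding elsewhere in the gene.

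Most p53 targets were lower in tumor than in PanIN lines, a comparison in which Trp53 allele and tissue of origin change together and cannot be told apart. Of the 35 targets, 21 fell and 0 rose (limma, adjusted p below 0.05 over all 12500 genes), while 1.21% of all tested genes fell and 0.392% rose. At an unadjusted p below 0.05, 29 targets were lower and 1 was higher, where 9.50% of all tested genes were lower and 20.2% higher. The median log2 change of the targets was -0.67, against 0.06 over all tested genes, and 33 of the 35 values were negative. In 18 of the 35 every tumor line lay below every PanIN line, a separation seen in 0.968% of tested genes, and in 0 of them every tumor line lay above (0.832%). In all, 151 genes fell, and the 21 targets are among them. Because the targets were chosen with earlier results of these data known, these shares describe the list and are no independent test. These are bulk samples, in which fewer cells with a transcript and less of it per cell cannot be told apart. The count was 13 without PanIN 3 and also 13 without PanIN 4. Over all genes the number that fell moved more with single lines, from 47 without tumor 8 to 849 without PanIN 6 (738 without tumor 4), where 14, 24 and 25 of the targets fell.

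Between PanIN and wild-type normal lines the targets leaned the other way. Of the 35, 15 rose and 0 fell (limma), where 3.10% of tested genes rose and 3.68% fell. At an unadjusted p below 0.05, 22 targets were higher and 0 lower, where 7.99% of all tested genes were higher and 11.0% lower. The median log2 change was 0.40, against -0.03 over all tested genes, and in 11 of the 35 every PanIN line lay above every normal line (1.26% of tested genes), while in 0 every PanIN line lay below (1.79%). Between tumor and normal lines 10 fell and 1 rose (limma), where 14.4% and 17.8% of tested genes fell and rose. The median was -0.20, against 0.04 over all tested genes, and 2 targets, Fas and Plk2, had every tumor line below every normal line (4.36% of tested genes), and 0 had every tumor line above (2.90%). At an unadjusted p below 0.05, 13 targets were lower and 3 higher, where 18.9% of all tested genes were lower and 25.1% higher. The split of calls over all genes depends on scaling. It was 387 higher and 460 lower between PanIN and normal lines, against 530 and 405 with median-of-ratios scaling. Between tumor and normal lines it was 2219 higher and 1805 lower, against 1441 and 2382 when 11 very abundant rows were left out of the total. The comparisons share groups of lines, so their values stand side by side here and are not counted against each other.

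**Figure D1:**
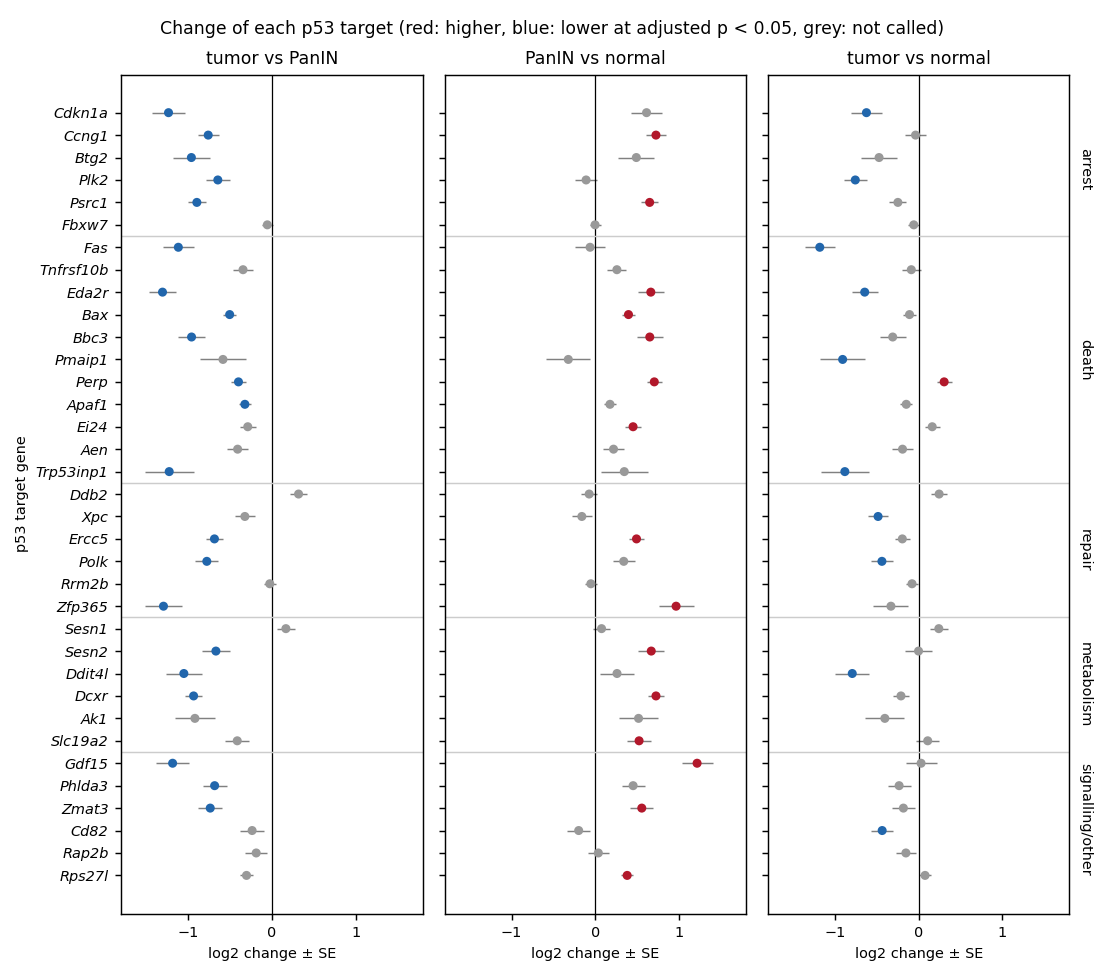
Log2 change with its standard error (limma, log2(TPM + 1) scale) of each of the 35 targets in tumor against PanIN, PanIN against normal and tumor against normal lines, ordered by role; red points rose, blue points fell and grey points were not called at an adjusted p below 0.05. The left panel holds 21 blue points, the middle panel 15 red points, and the right panel 10 blue points and 1 red point.

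Of 6 genes of cell cycle arrest, 5 fell in tumor against PanIN lines, and the median log2 change was -0.83. Their median was 0.55 between PanIN and normal lines, where 2 of 6 rose, and -0.36 between tumor and normal lines, where 2 of 6 fell. Of all tested genes 1.21% fell between tumor and PanIN lines and 3.10% rose between PanIN and normal lines. Between tumor and normal lines 14.4% of all tested genes fell. Cdkn1a encodes p21, the inhibitor of cyclin-dependent kinases through which p53 stops the cycle. Its lowest, median and highest TPM, the order used for all such triplets here, were 22.3, 34.7 and 46.96 in tumor lines, 64.9, 86.7 and 89.3 in PanIN lines and 34.2, 49.5 and 74.1 in normal lines. Tumor and PanIN lines did not overlap, and tumor lines overlapped with the lower normal lines. The difference between tumor and PanIN lines was 2.35-fold downward (log2 change -1.24, SE 0.19, adjusted p = 0.00289, limma). Against normal lines Cdkn1a was 1.54-fold lower in tumor lines (adjusted p = 0.0173, limma; 0.0543 without tumor 8). It was higher in PanIN than in normal lines by a log2 change of 0.61 that missed the threshold (adjusted p = 0.0549, limma) and passed it without tumor 3, tumor 8, normal 5, normal 7 or normal 11 (lowest adjusted p = 0.0301).

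Psrc1, a microtubule-associated protein of the mitotic spindle, had TPM of 45.6, 55.8 and 64.5 in tumor lines, 91.5, 105 and 119.98 in PanIN lines and 49.9, 65.9 and 83.8 in normal lines. Every PanIN line lay above every tumor and every normal line. It fell 1.86-fold in tumor against PanIN lines (log2 change -0.90, SE 0.10, adjusted p = 2.95e-04, limma) and rose 1.57-fold in PanIN against normal lines (adjusted p = 6.20e-04, limma). Ccng1, which encodes cyclin G1 and carries one of the promoter sites shown above, was far more abundant, at 305, 328 and 494 in tumor lines, 522, 584 and 769.6 in PanIN lines and 268, 374 and 422 in normal lines. Its tumor and normal lines overlapped widely and its PanIN lines stood above both groups. It fell 1.695-fold in tumor against PanIN lines (log2 change -0.76, SE 0.13, adjusted p = 0.00368, limma) and rose 1.65-fold in PanIN against normal lines (adjusted p = 0.00121, limma).

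Plk2, a polo-like kinase of centriole duplication, followed another order, with TPM of 69.2, 93.3 and 116 in tumor lines, 122, 152 and 169.6 in PanIN lines and 123, 151 and 203 in normal lines. PanIN and normal lines overlapped, and every tumor line lay below both groups. It fell in tumor lines against PanIN lines (1.57-fold, adjusted p = 0.0272, limma) and against normal lines (1.69-fold, adjusted p = 8.09e-04, limma). The first of these calls was lost without tumor 8 or 9 or PanIN 1, 2, 3 or 4 (adjusted p up to 0.0913) and with the identifier series as a covariate. Btg2, an antiproliferative cofactor, averaged 40.2 ± 11.3 in tumor, 79.3 ± 21.8 in PanIN and 56.6 ± 18.4 in normal lines (SD, n = 6, 6 and 7 for this and all such means) and fell in tumor against PanIN lines (adjusted p = 0.0392, limma), a call lost without tumor 5, 8 or 9, PanIN 1, 3, 4 or 5, or normal 13 (adjusted p up to 0.112). Fbxw7, the substrate receptor of a ubiquitin ligase that degrades cyclin E, averaged 11.3 ± 0.4903 in tumor, 11.8 ± 0.851 in PanIN and 11.8 ± 1.03 in normal lines (SD) and was called in no comparison, with log2 changes between -0.06 and -0.0032 over the 3 comparisons.

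**Figure D2:**
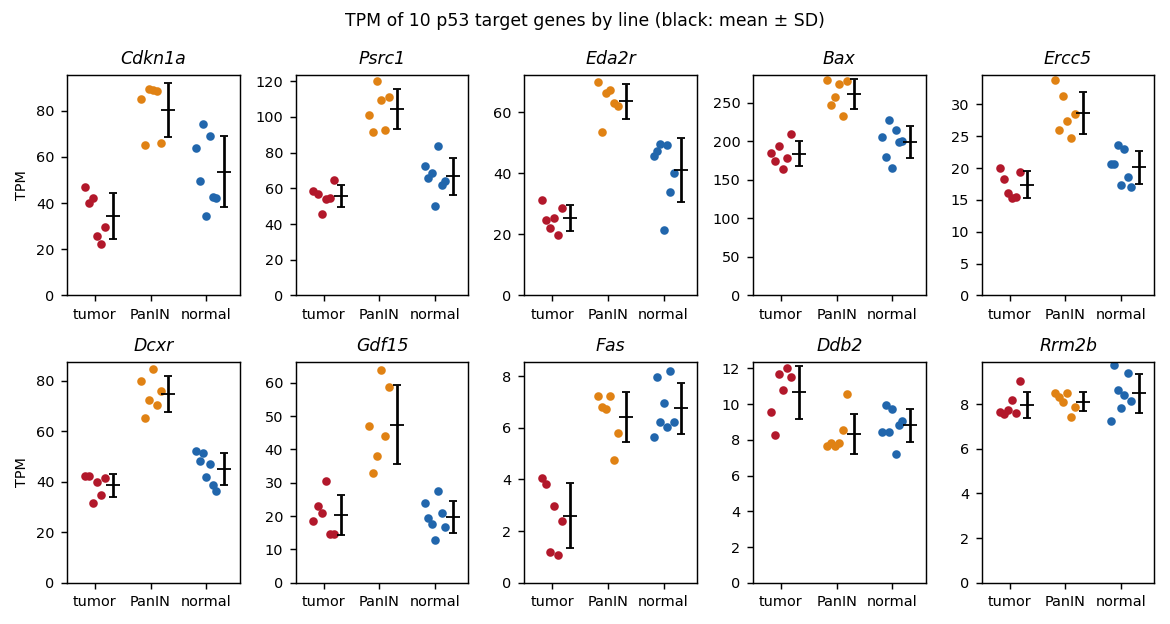
TPM of 10 of the targets in each tumor (red), PanIN (orange) and normal (blue) line, each point 1 line, with mean ± SD in black; every axis starts at 0. For Psrc1, Eda2r, Bax, Ercc5, Dcxr and Gdf15 the PanIN points stand above both other groups, for Fas the tumor points stand below both, and the Ddb2 and Rrm2b groups overlap.

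The cell death genes held both large and small differences. Of 11 genes, 7 fell between tumor and PanIN lines (median log2 change -0.51), 5 rose between PanIN and normal lines (median 0.35), and 4 fell and 1 rose between tumor and normal lines (median -0.19). The shares of all tested genes, in the same order, were 1.21%, 3.10%, 14.4% and 17.8%. Eda2r, a TNF receptor family member that binds ectodysplasin A2, had TPM of 19.8, 25.1 and 31.4 in tumor lines, 53.6, 64.8 and 69.9 in PanIN lines and 21.4, 45.8 and 49.5 in normal lines. All PanIN lines lay above all other lines, while normal 10 fell among the tumor lines. It was 2.48-fold lower in tumor than in PanIN lines (log2 change -1.31, SE 0.16, adjusted p = 5.26e-04, limma), 1.56-fold lower in tumor than in normal lines (adjusted p = 0.00553, limma) and 1.58-fold higher in PanIN than in normal lines (adjusted p = 0.014, limma).

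Fas, the death receptor, followed the order of Plk2 and not that of Eda2r. The tumor lines had 4.06 TPM in tumor 3, 3.82 in tumor 4, 1.21 in tumor 5, 2.99 in tumor 7, 1.09 in tumor 8 and 2.41 in tumor 9, against 4.75, 6.78 and 7.25 in PanIN lines and 5.64, 6.23 and 8.2 in normal lines. Tumor 5 and 8 were the lowest, and no tumor line reached any PanIN or normal line. Fas fell 2.17-fold against PanIN lines (log2 change -1.12, SE 0.19, adjusted p = 0.00401, limma) and 2.27-fold against normal lines (adjusted p = 3.42e-04, limma). Between PanIN and normal lines its log2 change was -0.06, adjusted p = 0.902 (limma). The other death receptor, the TRAIL receptor gene Tnfrsf10b, averaged 24.8 ± 3.14 in tumor, 31.8 ± 4.31 in PanIN and 26.6 ± 4.701 in normal lines (SD) and was called in no comparison (adjusted p = 0.0769 for tumor against PanIN lines, limma).

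The BCL-2 family members of the mitochondrial route did not move alike. Bax, which forms the outer membrane pore, had TPM of 164, 181 and 209.7 in tumor lines, 232, 266 and 279.9 in PanIN lines and 165, 199.99 and 228 in normal lines, with every PanIN line above every other line. It fell 1.42-fold in tumor against PanIN lines (log2 change -0.51, SE 0.08, adjusted p = 0.00289, limma) and rose 1.32-fold in PanIN against normal lines (adjusted p = 0.002904, limma). Bbc3, the BH3-only protein PUMA that activates the pore, was far less abundant, at 2.92, 4.61 and 7.83 in tumor lines, 8.72, 10.6 and 11.6 in PanIN lines and 4.51, 6.47 and 7.92 in normal lines. Its PanIN lines again stood above all others, and tumor and normal lines overlapped. It fell 1.95-fold (log2 change -0.96, SE 0.16, adjusted p = 0.00391, limma) and rose 1.57-fold (adjusted p = 0.0151, limma) in the same comparisons. Pmaip1, the BH3-only protein NOXA, had another distribution, with 28.6, 42.2 and 25.5 TPM in tumor 3, 4 and 5 and 12.98, 11.5 and 13.1 in tumor 7, 8 and 9, against 17.2, 31.3 and 43.9 in PanIN lines and 29.6, 35.9 and 53.4 in normal lines. Tumor 7, 8 and 9 lay below every PanIN and normal line, tumor 3 and 5 lay below every normal line but within the PanIN range, and tumor 4 lay within the range of both groups. It fell in tumor against normal lines (1.88-fold, adjusted p = 0.0151, limma), and its log2 changes were -0.59, adjusted p = 0.161, for tumor against PanIN lines and -0.32, adjusted p = 0.577, for PanIN against normal lines (limma). Without tumor 4 the first of these passed the threshold (adjusted p = 0.0338).

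Perp, a tetraspan protein of desmosomes, was the 1 target that rose in tumor against normal lines. Its TPM was 128, 162 and 180.2 in tumor lines, 171, 206 and 242 in PanIN lines and 109, 127 and 135 in normal lines, so that tumor lines lay between the other groups and overlapped with both. It rose 1.63-fold in PanIN against normal lines (log2 change 0.70, SE 0.09, adjusted p = 1.53e-04, limma) and 1.23-fold in tumor against normal lines (adjusted p = 0.0155, limma; not called after quantile normalization, adjusted p = 0.0973). It fell 1.32-fold in tumor against PanIN lines (adjusted p = 0.0392, limma), a call lost without tumor 8 or 9, PanIN 1, 3, 4 or 5, or normal 13 (adjusted p up to 0.106). Trp53inp1, a stress protein of autophagy and cell death, was split among the tumor lines, with 118 and 118 TPM in tumor 3 and 4 and 31.3 to 54.6 in the other 4. It averaged 70.5 ± 37.7 in tumor, 156 ± 51.8 in PanIN and 119.8 ± 26.7 in normal lines (SD) and fell against PanIN lines (adjusted p = 0.0436, limma) and against normal lines (adjusted p = 0.0241, limma). The first call was lost in 11 of 19 fits that left out 1 line, namely tumor 5, 8 or 9, PanIN 1, 2, 3 or 4, or normal 5, 7, 12 or 13 (adjusted p up to 0.127), and with sex or the identifier series as a covariate. The second was lost without tumor 5, 8 or 9 (adjusted p up to 0.0738).

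Apaf1, the scaffold of the apoptosome, averaged 19.02 ± 1.84 in tumor, 24.1 ± 2.42 in PanIN and 21.1 ± 1.07 in normal lines (SD) and fell in tumor against PanIN lines (adjusted p = 0.0392, limma), lost without tumor 5, 8 or 9, PanIN 1, 3 or 4, or normal 13 (adjusted p up to 0.106) and with the identifier series as a covariate. Ei24, an endoplasmic reticulum protein of autophagy, averaged 73.8 ± 7.52 in tumor, 90.7 ± 12.1 in PanIN and 66.01 ± 8.26 in normal lines (SD) and rose in PanIN against normal lines (1.37-fold, adjusted p = 0.00478, limma). Between tumor and PanIN lines it had an adjusted p of 0.0725 (limma) and was called under all 3 other scalings (lowest adjusted p = 0.0152). Aen, an apoptosis-enhancing nuclease, averaged 39.4 ± 7.03 in tumor, 52.4 ± 7.28 in PanIN and 45.2 ± 7.27 in normal lines (SD) and was called in no comparison, with a log2 change of -0.41, adjusted p = 0.0687 (limma) for tumor against PanIN lines. That change was called with median-of-ratios scaling (adjusted p = 0.0445) and after quantile normalization (adjusted p = 0.0359). Small differences thus stood beside large ones within the death role, from -0.29 for Ei24 to -1.31 for Eda2r between tumor and PanIN lines.

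The repair genes were split. Of 6, 3 fell between tumor and PanIN lines (median log2 change -0.51), 2 rose between PanIN and normal lines (median 0.14), and 2 fell between tumor and normal lines (median -0.26). The shares of all tested genes, in the same order, were 1.21%, 3.10% and 14.4%. Ercc5, the XPG endonuclease of nucleotide excision repair, had TPM of 15.3, 17.2 and 19.96 in tumor lines, 24.8, 27.97 and 33.8 in PanIN lines and 17.1, 20.6 and 23.6 in normal lines, with all PanIN lines above all others. It fell 1.61-fold in tumor against PanIN lines (log2 change -0.69, SE 0.10, adjusted p = 0.001597, limma) and rose 1.41-fold in PanIN against normal lines (adjusted p = 0.00291, limma). Zfp365, whose human counterpart is known to guard genome stability and whose promoter site is shown above, had TPM of 3.73, 5.495 and 9.07 in tumor lines, 11.4, 14.5 and 22.03 in PanIN lines and 3.25, 7.44 and 9.98 in normal lines. PanIN lines stood above all others, and normal 10, at 3.25, was the lowest of all 19 lines. It fell 2.46-fold (log2 change -1.30, SE 0.22, adjusted p = 0.00391, limma) and rose 1.95-fold (adjusted p = 0.00799, limma) in the same comparisons. Polk, the translesion DNA polymerase kappa, had 12.6, 14.6 and 16.99 in tumor lines, 20.3, 26.7 and 30.9 in PanIN lines and 14.6, 20.5 and 30.9 in normal lines. Its tumor lines lay below all PanIN lines and at the lower end of the normal lines. It fell 1.72-fold against PanIN lines (log2 change -0.78, SE 0.14, adjusted p = 0.00645, limma) and 1.36-fold against normal lines (adjusted p = 0.0182, limma; 0.0501 without tumor 8). Between PanIN and normal lines its log2 change was 0.34, adjusted p = 0.148 (limma), which passed the threshold without normal 11 (adjusted p = 0.0240).

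The 2 damage sensors of global nucleotide excision repair were not called between tumor and PanIN lines. Ddb2, which detects ultraviolet lesions, had TPM of 8.26, 11.2 and 12.04 in tumor lines, 7.63, 7.82 and 10.6 in PanIN lines and 7.19, 8.84 and 9.93 in normal lines. Its tumor lines lay at the upper end and overlapped with both other groups. The log2 changes were 0.32, adjusted p = 0.0674, for tumor against PanIN lines and 0.24, adjusted p = 0.0537, for tumor against normal lines (limma). The first passed the threshold without tumor 4, PanIN 6 or normal 11 (lowest adjusted p = 0.0139) and the second without tumor 3, tumor 4, PanIN 6, normal 6 or normal 10 (lowest adjusted p = 0.0123). Xpc, the other sensor, averaged 10.2 ± 2.12 in tumor, 12.8 ± 1.48 in PanIN and 14.5 ± 2.27 in normal lines (SD) and fell in tumor against normal lines (1.4-fold, adjusted p = 0.00541, limma). Its log2 change between tumor and PanIN lines was -0.32, adjusted p = 0.0956 (limma), and it was called without tumor 4 or PanIN 6 (lowest adjusted p = 0.0291). Rrm2b, the p53-inducible subunit of ribonucleotide reductase, averaged 7.95 ± 0.5703 in tumor, 8.11 ± 0.421 in PanIN and 8.48 ± 0.875 in normal lines (SD) and was called in no comparison, with a log2 change of -0.03, adjusted p = 0.8395 (limma) for tumor against PanIN lines.

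Among genes of metabolism and growth control, 3 of 6 fell between tumor and PanIN lines (median log2 change -0.80), 3 rose between PanIN and normal lines (median 0.52) and 1 fell between tumor and normal lines (median -0.11). The shares of all tested genes, in the same order, were 1.21%, 3.10% and 14.4%, the last of which is near that of these genes. Dcxr, a reductase of dicarbonyls and xylulose, had the smallest p of the 35 targets between tumor and PanIN lines. Its TPM was 31.5, 40.7 and 42.2 in tumor lines, 65, 74.2 and 84.7 in PanIN lines and 36.4, 46.8 and 52.1 in normal lines, with every PanIN line above every other line. It fell 1.91-fold (log2 change -0.94, SE 0.10, adjusted p = 1.14e-04, limma) and rose 1.65-fold in PanIN against normal lines (adjusted p = 1.76e-04, limma). The 3 inhibitors of the growth kinase complex mTORC1 differed from each other. Sesn2, a leucine sensor, had 14.3, 15.7 and 17.5 in tumor lines, 21.5, 26.6 and 28.9 in PanIN lines and 8.21, 15.8 and 23.1 in normal lines, and its PanIN lines lay above all tumor lines. It rose 1.59-fold in PanIN against normal lines (adjusted p = 0.0139, limma) and fell 1.59-fold in tumor against PanIN lines (adjusted p = 0.0469, limma). The second call was lost in 17 of 30 other settings, among them the fits without tumor 5, 8 or 9, PanIN 1, 2, 3, 4 or 5, or normal 5, 12 or 13 (adjusted p up to 0.127). Its paralog Sesn1 averaged 4.72 ± 0.5298 in tumor, 4.12 ± 0.7397 in PanIN and 3.86 ± 0.623 in normal lines (SD) and was called in no comparison, with a log2 change of 0.17, adjusted p = 0.316 (limma) for tumor against PanIN lines.

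Ddit4l, also called REDD2, had TPM of 8.08, 11.1 and 15.5 in tumor lines, 16.3, 25.2 and 36.3 in PanIN lines and 13.4, 19.4 and 32.9 in normal lines. Tumor lines lay below all PanIN lines, and 2 of them, tumor 3 and tumor 9, overlapped with the normal lines. It fell 2.07-fold against PanIN lines (log2 change -1.05, SE 0.21, adjusted p = 0.0191, limma; not called when tumor 5, tumor 8, PanIN 1, PanIN 3 or PanIN 4 was left out, with an adjusted p up to 0.0625) and 1.73-fold against normal lines (adjusted p = 0.008103, limma). Ak1, the cytosolic adenylate kinase, was low, at 0.66, 1.23 and 2.45 in tumor lines, 1.47, 3.395 and 5.9 in PanIN lines and 1.28, 1.96 and 3.38 in normal lines, and its groups overlapped. Its log2 change between tumor and PanIN lines was -0.92, adjusted p = 0.05503 (limma), and it was called without tumor 3, tumor 4, PanIN 5, PanIN 6 or normal 11 (lowest adjusted p = 0.0196). Slc19a2, a thiamine transporter, averaged 23.9 ± 3.91 in tumor, 32.2 ± 5.39 in PanIN and 22.4 ± 4.98 in normal lines (SD) and rose in PanIN against normal lines (1.44-fold, adjusted p = 0.02704, limma), lost without PanIN 5, PanIN 6, normal 12 or normal 13 (adjusted p up to 0.0715).

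The remaining 6 targets act in signalling or have other roles. Of these, 3 fell between tumor and PanIN lines (median log2 change -0.49), 3 rose between PanIN and normal lines (median 0.42) and 1 fell between tumor and normal lines (median -0.17). The shares of all tested genes, in the same order, were 1.21%, 3.10% and 14.4%, the last of which is near that of these genes. Gdf15, a secreted stress cytokine, had TPM of 14.6, 19.8 and 30.4 in tumor lines, 32.9, 45.6 and 63.7 in PanIN lines and 12.8, 19.6 and 27.4 in normal lines. Every PanIN line lay above every other line, and tumor and normal lines overlapped. It fell 2.28-fold in tumor against PanIN lines (log2 change -1.19, SE 0.19, adjusted p = 0.00352, limma) and rose 2.32-fold in PanIN against normal lines (log2 change 1.22, SE 0.19, adjusted p = 5.44e-04, limma), the largest rise of the 35 targets. Zmat3, an RNA-binding zinc finger protein, had 4.61, 6.23 and 7.49 in tumor lines, 8.61, 10.8 and 13.1 in PanIN lines and 4.58, 7.82 and 9 in normal lines. Tumor lines lay below all PanIN lines and among the normal lines. It fell 1.67-fold (log2 change -0.74, SE 0.14, adjusted p = 0.0136, limma; not called with the identifier series as a covariate) and rose 1.47-fold (adjusted p = 0.0189, limma). Phlda3, which competes with the kinase AKT for membrane lipids, had 42.5, 52.1 and 63.9 in tumor lines, 69.3, 84.8 and 99.1 in PanIN lines and 40.8, 64.5 and 75.6 in normal lines, again with tumor lines below all PanIN lines. It fell 1.61-fold against PanIN lines (adjusted p = 0.0223, limma), lost without PanIN 3 or PanIN 4 (adjusted p up to 0.0687) and with the identifier series as a covariate. Its log2 change between PanIN and normal lines was 0.45, adjusted p = 0.0541 (limma), and it was called without tumor 5, PanIN 2, normal 6, normal 7 or normal 11 (lowest adjusted p = 0.0260).

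Rps27l, a ribosomal protein variant with a promoter site shown above, was the most abundant of the 35, at 759, 815 and 994 in tumor lines, 917, 1039 and 1152 in PanIN lines and 734, 769 and 876 in normal lines. Its PanIN lines lay above all normal lines, and tumor 9 reached into the PanIN range. It rose 1.302-fold in PanIN against normal lines (log2 change 0.38, SE 0.07, adjusted p = 0.00348, limma). Between tumor and PanIN lines its log2 change was -0.30 with an adjusted p of 0.0500 that lay just above the threshold (limma), and it was called without tumor 4, tumor 9, PanIN 6 or normal 11 (adjusted p = 0.0264, 0.0324, 0.0222 and 0.0392). Rps27l is close in sequence to Rps27, so reads can be shared and its level is uncertain. Cd82, a tetraspanin, averaged 21.9 ± 6.399 in tumor, 25.3 ± 3.204 in PanIN and 29.1 ± 2.69 in normal lines (SD) and fell in tumor against normal lines (1.35-fold, adjusted p = 0.0192, limma), lost without tumor 5 or tumor 9 (adjusted p up to 0.0568). Rap2b, a small GTPase, averaged 7.87 ± 0.751 in tumor, 9.18 ± 1.69 in PanIN and 8.997 ± 2.05 in normal lines (SD) and was called in no comparison, with a log2 change of -0.19, adjusted p = 0.334 (limma) for tumor against PanIN lines.

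**Figure D3:**
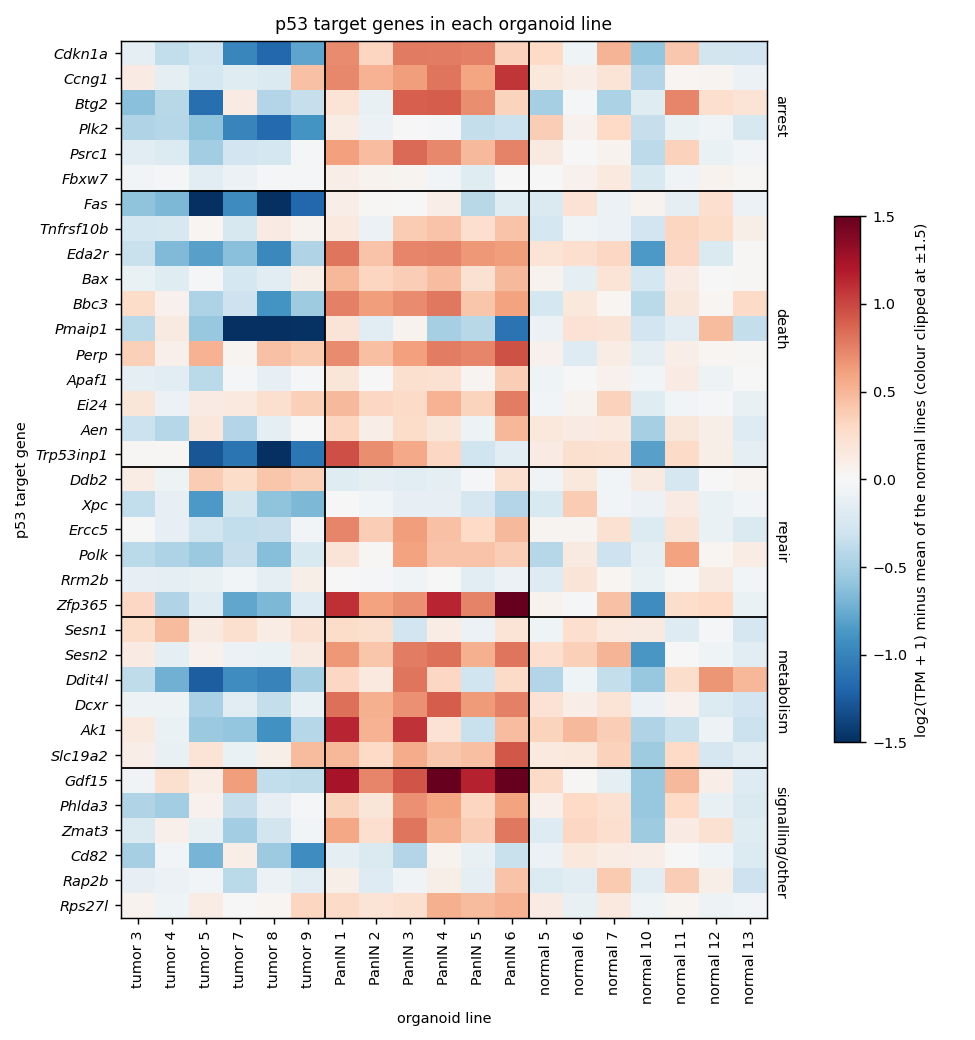
Level of each of the 35 targets (rows, by role) in each of the 19 lines (columns), as log2(TPM + 1) minus the mean of the normal lines, red above and blue below it, with colour clipped at 1.5 in either direction. The PanIN columns are mostly red, normal 10 is the bluest normal column, and Fas, Pmaip1 and Trp53inp1 differ among the tumor columns.

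Line by line, each tumor line lay below every PanIN line for 25 to 29 of the 35 targets, with 29 in tumor 8 and 25 in tumor 4 and tumor 9, while 8.17% to 24.1% of all tested genes lay so in a tumor line. Normal lines also lay below every PanIN line for many targets, from 15 in normal 6 to 24 in normal 5 and 26 in normal 10. The position is thus not particular to tumor lines, and the matching shares of all tested genes were not taken for normal lines. Each PanIN line lay above every normal line for 13 to 23 targets, with 13 in PanIN 2 and 23 in PanIN 3, while 7.32% to 28.2% of all tested genes lay so in a PanIN line. PanIN 2 had the lowest value of the 6 PanIN lines for 18 targets, and the same count over all tested genes was not made. Set against the normal lines, tumor 5 and tumor 8 lay below every normal line for 15 targets each, where 27.5% and 22.9% of all tested genes did. Tumor 4 did so for 5 of the 35 targets, where 14.6% of all tested genes did, a share near that of the targets. In no tumor line did the median target reach the lowest PanIN line. This median, taken over the 35 targets relative to the mean of the normal lines on the log2(TPM + 1) scale, was -0.28 to -0.04 in tumor, 0.24 to 0.57 in PanIN and -0.28 to 0.15 in normal lines.

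The same medians by role did not overlap between tumor and PanIN lines in any of the 5 roles. For arrest genes they were -0.41 to -0.16 in tumor, 0.19 to 0.75 in PanIN and -0.37 to 0.19 in normal lines. For repair genes PanIN and normal lines overlapped, with -0.48 to -0.06 in tumor, -0.0036 to 0.30 in PanIN and -0.12 to 0.16 in normal lines. For metabolism genes PanIN 5, at 0.18, lay within the range of the normal lines (-0.49 to 0.27), and for signalling genes PanIN 2, at 0.19, did so too (-0.35 to 0.21). For death genes PanIN lines (0.23 to 0.49) lay above all normal lines (-0.28 to 0.14). Each role holds few genes, 6 to 11, and no test was made between roles.

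**Figure D4:**
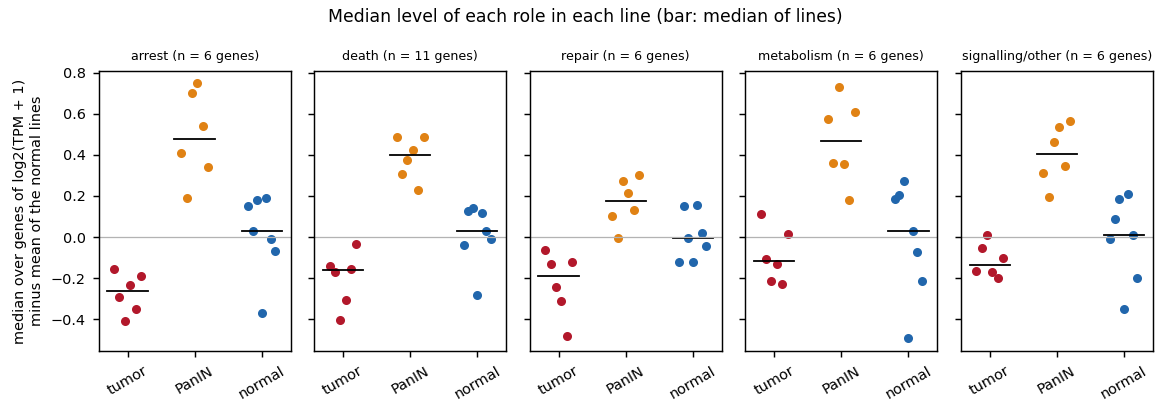
Median over the genes of each role of log2(TPM + 1) minus the mean of the normal lines, 1 point for each line, in tumor (red), PanIN (orange) and normal (blue) lines, with a bar at the median of the lines. Tumor points lie below PanIN points in all 5 roles, and the lowest normal point in the arrest, death, metabolism and signalling panels is normal 10.

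Spread between lines of a group was moderate. The coefficient of variation of the targets had a median of 16.4% in tumor, 13.6% in PanIN and 17.7% in normal lines, against 15.3%, 14.7% and 14.8% over all tested genes. Within tumor lines 10 of 35 targets differed by more than 2-fold between the highest and the lowest line, as did 5 within PanIN and 10 within normal lines. The matching counts over all tested genes were not made. Pmaip1, Trp53inp1, Fas and Ak1 varied most among tumor lines, with coefficients of variation of 54.4%, 53.5%, 48.8% and 45.3%, and Fbxw7 the least, at 4.35%.

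The library identifiers in the column names fall into 3 series, and each holds lines of all 3 groups, so the comparisons could be repeated within them. Series 1 holds tumor 4, PanIN 1, 2 and 3 and normal 5, 6 and 7, series 2 tumor 5, 7 and 8, PanIN 4 and normal 10 and 11, and series 3 tumor 3 and 9, PanIN 5 and 6 and normal 12 and 13. Between tumor and PanIN lines the median log2 difference of the 35 targets was -0.64, -0.78 and -0.43 in series 1, 2 and 3, while that of all tested genes was 0.02, 0.06 and 0.06. The difference was negative in all 3 series for 29 targets and positive in all 3 for Ddb2 and Sesn1. The 4 others, Fbxw7, Pmaip1, Rrm2b and Cd82, had both signs. How many of all tested genes kept the same sign in all 3 series was not counted for any comparison. Between PanIN and normal lines the medians were 0.28, 0.54 and 0.33, against -0.07, 0.04 and -0.0048 over all tested genes. In PanIN lines 23 targets were higher in all 3 series. Pmaip1 and Xpc were lower in all 3. Among 10 targets with both signs, Ddit4l had differences of 0.71, 0.46 and -0.59 and Trp53inp1 of 0.55, 0.58 and -0.21 in series 1, 2 and 3. Between tumor and normal lines the medians were -0.20, -0.22 and -0.07, against -0.05, 0.09 and 0.06 over all tested genes. Series 1 holds 1 tumor line and series 2 holds 1 PanIN line, so within them no spread can be given for that group.

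Other genes of the pathway came from lists of p53 regulators and of further targets. Of 11 tested p53 family members and regulators, 1 fell between tumor and PanIN lines and 1 rose between PanIN and normal lines, and both were Mdm2, the ubiquitin ligase of p53 and itself a target. It stood at 61.4 ± 10.5 TPM in tumor, 107 ± 14.1 in PanIN and 68.3 ± 12.5 in normal lines (SD), with log2 changes of -0.80, adjusted p = 0.00352, for tumor against PanIN and 0.65, adjusted p = 0.00333, for PanIN against normal lines (limma). Between tumor and normal lines 1 of the 11 rose, the deubiquitinase gene Usp7, where 17.8% of all tested genes rose. Between tumor and PanIN lines 1.21% of all tested genes fell, and between PanIN and normal lines 3.10% rose. The median of the 11 was 0.16 between tumor and PanIN lines. Of 17 further p53 targets tested, 1 fell between tumor and PanIN lines, which was 9030617O03Rik (log2 change -0.92, adjusted p = 0.001597, limma), and their median was -0.18. Between PanIN and normal lines 2 of the 17 rose, 9030617O03Rik and Ninj1, a plasma membrane rupture protein, and 2 fell, Trp53i11 and Cyfip2. Of all tested genes 3.10% rose and 3.68% fell in that comparison. Between tumor and normal lines 5 of the 17 fell and 2 rose, where 14.4% of all tested genes fell and 17.8% rose. The 4 named by smallest adjusted p were Cyfip2, Trp53i11, the cytokine gene Lif and the glutaminase gene Gls2, the last of which rose. Cyfip2 was near the floor, at a mean of 0.143 TPM in tumor, 0.178 in PanIN and 1.4 in normal lines. It passed the filter only through the normal lines, so the filter in part fixed the direction of its falls. The extended list thus had a smaller median than the 35 genes, and the difference between the lists was not tested.

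Some of the 35, among them Sesn2, are also known to answer to ATF4, the transcription factor of amino acid and endoplasmic reticulum stress. In a list of 13 ATF4 targets, which includes Sesn2, 1 fell between tumor and PanIN lines, Sesn2 itself, which was also the 1 that rose between PanIN and normal lines, and the median between tumor and PanIN lines was 0.39. Against normal lines 3 of the 13 rose in tumor lines, namely Asns, Psat1 and Atf5, of amino acid synthesis and stress response. Of all tested genes 17.8% rose in that comparison, a share near that of this list. Between tumor and PanIN lines 1.21% of all tested genes fell, and between PanIN and normal lines 3.10% rose. Of 16 mitotic and cell cycle genes known to be lowered through p21, all 16 had a positive log2 change between tumor and PanIN lines (median 0.68), with adjusted p between 0.0704 and 0.160 (limma). None of the 16 was called there, and 7586 of the 12500 tested genes also had a positive log2 change (median 0.06). A link to Cdkn1a was not tested. Between tumor and normal lines, where 17.8% of all tested genes rose, 9 of the 16 rose (median 0.69). Their summed TPM was 986 to 1859 in tumor, 656 to 1508 in PanIN and 417 to 1258 in normal lines, and its part in the changes of the p53 targets was not tested.

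The authors' deposited table holds its own comparisons, made by the authors and not from the fits above. Of the 35 targets, 28 were lower and 1 was higher in the authors' deposited table in tumor than in PanIN lines at an adjusted p below 0.05, where 6.55% of genes with an adjusted p there were lower and 5.10% higher. The 1 higher target in the authors' deposited table was Ddb2 (log2 change 0.27, adjusted p = 0.0378). For PanIN against normal lines 18 targets were higher (5.53% of genes) and 0 lower (4.94%) in the authors' deposited table, with Cdkn1a among those higher (log2 change 0.62, adjusted p = 0.0237). For tumor against normal lines the authors' deposited table lists 14 lower targets (16.4% of genes) and 2 higher ones (16.2%), Perp and Ddb2. The 6 targets outside its calls between tumor and PanIN lines were Fbxw7, Pmaip1, Rrm2b, Sesn1, Cd82 and Rap2b in the authors' deposited table.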

How the data were processed

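The authors deposited TPM per gene and line. Tools in the submitters' processing notes are Bowtie 1.1.0, RSEM 1.2.11, DESeq, DESeq2 1.4.1 and FastQC, with build mm9; the sources used here do not give the annotation. Per the labels' protocols, ribosomal RNA was removed and libraries mark strand. Per the file headers the deposited file also gives, for each comparison, the authors' log2 fold change, its standard error and test statistic (a score), with p-values before and after adjustment. Depth is unknown because TPM does not keep it, and counting intervals are therefore left out; TPM columns sum to 1000000 within rounding, and 11 rows without a deposited comparison took 16.3% to 28.6% of a line. Columns of other samples number 0.

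log2(TPM + 1) was fitted with limma 3.58.1 (R 4.3.3) as 1 mean per group over all 19 lines, with eBayes (trend), two-sided, and Benjamini-Hochberg adjustment over 12500 genes with a TPM of at least 1 in at least 6 lines. A target rose or fell when its adjusted p was below 0.05; folds on this scale understate changes of low genes. The fit was tested on simulated data. Promoter windows were searched and figures drawn in Python 3.11.15 (pandas 2.3.3, matplotlib 3.10.9); RefSeq windows are on GRCm38.p6, matched by symbol only. The lowest, median and highest TPM of each group are given for the 4 targets of each role with the smallest p between tumor and PanIN lines. The same holds for targets called against their role's direction. Tumor values are given by line for Fas. They are so given for Pmaip1, and in part for Trp53inp1, because their values were seen to differ among tumor lines. From the gene lists, up to 4 called genes per comparison are named. The targets, roles and lists were chosen with earlier results of these data known. An allele in the labels of both the tumor and the PanIN mice is not reported here. No 2 lines shared more than 0.432% of TPM values, so no column was a copy of another. A line cultured or sequenced again would not show in this count. Line numbers shared by groups do not pair lines. Alternatives were other pseudocounts, filters, scalings, covariates and fits without 1 line.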

Additional observations from a re-analysis of the deposited data

Results flagged for a closer look

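Of 105 sets of lines examined (35 targets in 3 groups), 4 held a line that stood apart from the others of its group by Dixon's ratio at the 95% level; chance flags about 1 in 20 such sets. Rap2b was at 6.42 TPM in tumor 7, against 7.78 to 8.53 in the other tumor lines. Ddb2 was at 10.6 TPM (10.55) in PanIN 6, against 7.63 to 8.54 in the other PanIN lines; without PanIN 6 Ddb2 was called higher in tumor than in PanIN lines (adjusted p = 0.0139, limma). Normal 10 held the other 2: Trp53inp1 at 65.8 TPM (65.81), against 106 to 142 in the other normal lines, and Zfp365 at 3.25 TPM, against 6.60 to 9.98.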

How the results depend on the processing

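Over 30 other settings, no called target changed sign. Of the calls, 12 of 21 between tumor and PanIN lines, 14 of 15 between PanIN and normal lines and 6 of 11 between tumor and normal lines held in every setting other than the replicate block. With the identifier series as a covariate 15 targets fell between tumor and PanIN lines, and with no filter 16. The calls lost there with no filter were those of Btg2, Plk2, Perp, Trp53inp1 and Sesn2. In a fit of only the 2 groups compared, those of Btg2, Perp, Apaf1 and Trp53inp1 were lost. Leaving out 1 line gave 13 to 25 lower and 0 to 1 higher targets between tumor and PanIN lines, 14 to 18 higher between PanIN and normal lines, and 7 to 13 lower and 1 to 2 higher between tumor and normal lines; the cause was not tested. After quantile normalization 2 targets rose between tumor and normal lines, Ddb2 and Sesn1, and Perp did not. Median-of-ratios scaling gave 25 lower targets between tumor and PanIN lines. Line numbers that groups share are names of lines and pair none: the deviations of the 7 same-numbered pairs across groups had correlations of -0.31 to 0.25, and of 0.06 to 0.10 between tumor and PanIN lines. A fit with the line number as a replicate block, which leaves few degrees of freedom, called 4 lower targets between tumor and PanIN lines, 1 higher between PanIN and normal lines, and 5 lower and 0 higher between tumor and normal lines (limma). Depth is unknown, so it could not be weighed for low targets such as Ak1 and Fas.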
